A study of Rattus norvegicus with 9 samples.

Results

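The genes described here encode the proteins by which fast-twitch and slow-twitch skeletal muscle fibres differ, measured in libraries made from rat spinal cord. They were chosen by symbol after muscle transcripts had been seen in these libraries, so their levels in the SCI group, and their differences from it, are descriptions without a test. The list names 10 genes, namely the myosin heavy chain genes Myh1, Myh2, Myh4 and Myh7 and the troponin genes Tnnt1, Tnnt3, Tnni1, Tnni2, Tnnc1 and Tnnc2. Of these, 8 had a row under their symbol among the 30507 rows of the count table, 4 of them fast and 4 slow. No row carried the symbol Myh1 or Myh4.

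RNA sequencing was performed on spinal cord segments T9 to T11 of 9 female wild-type Sprague-Dawley rats, 8 weeks old when obtained, at 35 days post-injury (dpi). The 3 Sham rats carried no contusion; the labels call them untreated and the study's methods describe a laminectomy alone. The 3 SCI rats had a contusion of the cord at T10. The 3 SCI + SCS rats had the same contusion, epidural electrodes and, from 1 dpi, stimulation at 10 kHz and 0.12 mA for 2 h per day. Injured rats with electrodes and no stimulation were not analysed here, so the implant and the current cannot be told apart. Each library is whole tissue of 1 segment block, and in such bulk libraries fewer cells of a type and less RNA per cell cannot be told apart.

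In a sarcomere, myosin heavy chains form the thick filament and pull on actin, and the speed of a fibre follows from the heavy chain it uses. Myh7 encodes the slow chain, and Myh2, Myh1 and Myh4 encode the fast chains IIa, IIx and IIb. Troponin sits on the thin filament and lets calcium switch contraction on. Its subunit C binds calcium, subunit I blocks the filament at rest, and subunit T anchors the complex to tropomyosin. Tnnt3, Tnni2 and Tnnc2 are the fast versions, and Tnnt1, Tnni1 and Tnnc1 the slow versions, with Tnnc1 shared with the heart. Spinal cord holds no skeletal muscle fibres.

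The fast heavy chain genes lie side by side on chromosome 10, and the promoter sequences below are shown because they illustrate how alike the fast genes are and how Myh7 and the troponin I genes differ from them. They are the 250 bases before the start of each gene in RefSeq's GRCr8 assembly, 5′ to 3′ on the strand of the gene. This assembly is not the build of the deposited files. RefSeq gave a promoter for 8 of the 10 genes, and Tnnt3 and Tnnc1 had no entry. Capitals mark a match to the MEF2 motif, the site of the myocyte enhancer factors.
Myh2 (chr10:52355489-52355738, plus strand): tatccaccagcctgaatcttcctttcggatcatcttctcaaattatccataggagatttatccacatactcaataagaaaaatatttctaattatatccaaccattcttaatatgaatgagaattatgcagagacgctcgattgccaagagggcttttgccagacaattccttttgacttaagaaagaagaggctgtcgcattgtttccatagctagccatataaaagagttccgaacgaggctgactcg
Myh1 (chr10:52384662-52384911, plus strand): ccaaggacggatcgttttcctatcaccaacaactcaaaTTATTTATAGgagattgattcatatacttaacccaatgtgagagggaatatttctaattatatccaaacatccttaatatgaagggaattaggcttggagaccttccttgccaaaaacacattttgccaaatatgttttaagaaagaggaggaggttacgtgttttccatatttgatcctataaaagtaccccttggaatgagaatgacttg
Myh4 (chr10:52421898-52422147, plus strand): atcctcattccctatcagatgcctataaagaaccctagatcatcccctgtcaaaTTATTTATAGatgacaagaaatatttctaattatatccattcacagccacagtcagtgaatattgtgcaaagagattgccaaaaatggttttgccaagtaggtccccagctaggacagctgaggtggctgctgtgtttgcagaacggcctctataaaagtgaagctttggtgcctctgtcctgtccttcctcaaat
Myh7 (chr15:32438195-32438444, minus strand): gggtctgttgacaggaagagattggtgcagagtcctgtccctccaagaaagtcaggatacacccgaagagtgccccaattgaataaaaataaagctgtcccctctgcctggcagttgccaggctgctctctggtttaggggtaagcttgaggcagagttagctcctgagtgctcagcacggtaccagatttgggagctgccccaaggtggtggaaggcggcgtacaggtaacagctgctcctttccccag
Tnni2 (chr1:207024240-207024489, plus strand): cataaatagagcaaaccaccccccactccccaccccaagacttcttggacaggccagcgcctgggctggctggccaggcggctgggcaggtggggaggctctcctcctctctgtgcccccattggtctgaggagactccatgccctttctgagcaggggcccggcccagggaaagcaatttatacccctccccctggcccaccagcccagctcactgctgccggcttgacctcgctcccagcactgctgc
Tnni1 (chr13:49781279-49781528, plus strand): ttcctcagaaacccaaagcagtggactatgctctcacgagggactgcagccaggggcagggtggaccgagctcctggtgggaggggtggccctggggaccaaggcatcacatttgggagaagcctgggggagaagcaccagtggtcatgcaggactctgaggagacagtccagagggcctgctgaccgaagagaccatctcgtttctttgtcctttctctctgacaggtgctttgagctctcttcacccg

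Myh2, Myh1 and Myh4 shared an unbroken run of 20 bases, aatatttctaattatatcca, which began 170, 166 and 177 bases before their starts. The longest run that Myh7 shared with any of these 3 was 9 bases, with Myh4, and Tnni1 and Tnni2 shared 11 bases. Searched on both strands, the MEF2 motif matched once in Myh1 and once in Myh4 and in none of the other 6 promoters, against 2.96% of all 33469 rat promoters of this length. The TATA letters TATAAA were found in all 3 fast myosin promoters, where some of these matches overlap the MEF2 match, and also in Tnnt1 and Tnni2, against 12.9% of all promoters. The E-box CANNTG, which MyoD-type factors bind, was found in 6 of the 8 (not in Myh1 or Myh2), against 65.5% of all promoters. The MCAT letters CATTCC were found in Myh1 and Myh4 only, against 12.1%. These are matches of letters in a short window and no measurement of binding.

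The fast heavy chains are also known to be much alike in coding sequence, so that reads can be assigned to the wrong neighbour. The symbol Myh2 stood on 2 rows with different Ensembl genes. The row with more counts, ENSRNOG00000049695, lies at chr10:51885913-51909699 on the plus strand (mRatBN7.2, as the files list it) and carries the NCBI gene number that RefSeq gives to Myh4. The row with fewer counts, ENSRNOG00000065740, lies at chr10:51856738-51883236 and carries RefSeq's number for Myh2. The starts of both rows are 29175 bases apart, whereas RefSeq places Myh1 29071 and Myh4 66409 bases after Myh2. The larger row spans 23787 bases, against 23889 for Myh1 and 23149 for Myh4 in RefSeq. Spacing and span were therefore both closer to Myh1, and only the gene number matched Myh4. As the builds differ, the chain of the larger row was not settled. It is called the larger Myh2 row below and counts as a fast heavy chain, since Myh2, Myh1 and Myh4 are all fast.

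Library totals were between 62844376 and 88358570 counts, and 3 counts, the least that this depth was taken to show, stood for 0.0341 to 0.0472 CPM (counts scaled to library size, normalized by TMM over all 9 libraries). The labelled tissue was borne out by its markers, of which 13 genes of neurons and glia took between 2.08% and 7.97% of the counts in every library. Muscle genes were far higher in some libraries than in others. The summed share of 40 other muscle genes, from the lists of fast partners, slow partners and shared sarcomere genes without 6 that neurons or many other cells also express (Pvalb, Atp2a2, Tpm3, Fhl1, Myh7b and Tpm1), was 0.38% in SCI replicate 1 (95% Clopper-Pearson interval 0.378 to 0.381) and 0.189% in SCI replicate 3 (0.187 to 0.19). It was 0.0137% in SCI replicate 2, 0.00787% to 0.013% in the Sham group and 0.0108% to 0.0117% in the SCI + SCS group. By a threshold of 3 times the highest Sham library, or 0.0391%, SCI replicates 1 and 3 held muscle signal and the other 7 libraries did not. The highest Sham library was Sham replicate 2, at 0.013%. No Sham library can pass a limit set in this way, so a library without muscle signal is only one below it. Such a library may still hold muscle transcripts at a low level. Group values for SCI therefore rest on both of these libraries, and the comparisons of the SCI group with the others are given with and without them.

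**Figure D1:**
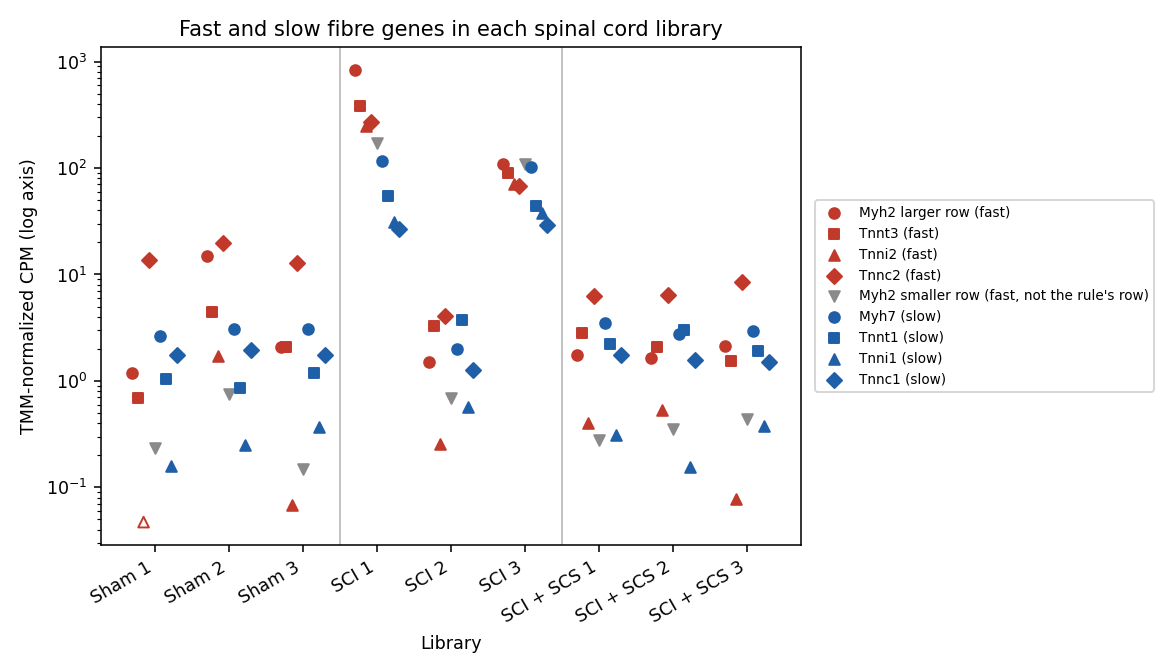
TMM-normalized CPM (vertical log axis) of the 8 members and of the second Myh2 row in each of the 9 libraries (horizontal axis), with fast genes in red, slow genes in blue, the second row in grey and an open symbol at 3 counts for a count of 0. In SCI replicate 1 the fast members lay at 246 to 833 CPM and the slow members at 27.0 to 117 CPM, in SCI replicate 3 both lay between 28.9 and 110 CPM, and in the other 7 libraries no member passed 19.8 CPM.

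Among the heavy chains, the larger Myh2 row had 65657 counts (833 CPM) in SCI replicate 1, 7589 (110 CPM) in SCI replicate 3 and 105 (1.49 CPM) in SCI replicate 2. Its counts in the Sham libraries were 75, 1318 and 182, and in the SCI + SCS libraries 126, 117 and 137. Both muscle-bearing SCI libraries were above all others, and Sham replicate 2, at 15.0 CPM, was above the remaining 6. The smaller Myh2 row had 13466 counts in SCI replicate 1, 7613 in SCI replicate 3 and 49 in SCI replicate 2. In the Sham group it had 15, 66 and 13 counts and in the SCI + SCS group 20, 25 and 28. The larger row held 83.0% of the joint counts of both rows in SCI replicate 1 (95% Clopper-Pearson interval 82.7 to 83.2) and 49.9% in SCI replicate 3 (49.1 to 50.7), where the rows were nearly even. Sham replicate 2 had the highest share of the larger row, 95.2% (94.0 to 96.3). Intervals on shares cover counting error only, because amplified reads were not counted by molecule.

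The slow heavy chain gene Myh7 (ENSRNOG00000016983, chr15:28446550-28468217, minus strand) had 9206 counts (117 CPM) in SCI replicate 1, 7097 (103 CPM) in SCI replicate 3 and 141 (2.001 CPM) in SCI replicate 2. It had 169, 268 and 270 counts in the Sham libraries and 252, 195 and 187 in the SCI + SCS libraries. Unlike the larger Myh2 row, Myh7 was at nearly the same level in both muscle-bearing libraries, and Sham replicate 2 did not stand apart for it.

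Troponin T, which ties the complex to tropomyosin, is encoded by Tnnt3 in fast fibres (ENSRNOG00000020332, chr1:197652431-197669535) and Tnnt1 in slow fibres (ENSRNOG00000028041, chr1:69306362-69316721). Tnnt3 had 30241, 230 and 6268 counts in SCI replicates 1, 2 and 3. Its Sham counts were 44, 391 and 181, and its SCI + SCS counts 201, 146 and 98. Sham and SCI + SCS libraries overlapped for Tnnt3, and SCI replicate 2, at 3.26 CPM, lay inside the Sham range of 0.692 to 4.44 CPM. Tnnt1 had 4322, 266 and 3066 counts in the SCI libraries. It had 66, 76 and 104 in the Sham libraries and 159, 211 and 122 in the SCI + SCS libraries. For Tnnt1, SCI replicate 2 (3.78 CPM), which held no muscle signal, was above all Sham libraries (0.863 to 1.19 CPM), and so were all SCI + SCS libraries (1.91 to 2.99 CPM).

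Troponin I, the inhibitory subunit, rested on few counts in most libraries without muscle signal. The fast gene Tnni2 (ENSRNOG00000020276, chr1:197594813-197597560) had 19365, 18 and 4893 counts in the SCI libraries. It had 0, 150 and 6 counts in the Sham libraries, where a count of 0 in replicate 1 allows a level of up to 0.0472 CPM, and 29, 38 and 5 in the SCI + SCS libraries. The slow gene Tnni1 (ENSRNOG00000009073, chr13:47229216-47241644) had 2466, 40 and 2625 counts in SCI replicates 1, 2 and 3, 10, 22 and 32 in the Sham libraries and 22, 11 and 24 in the SCI + SCS libraries. Sham replicate 2 was again the highest Sham library for the fast gene, at 1.70 CPM, and lay between the other Sham libraries for the slow gene.

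Troponin C, the calcium sensor, had a fast gene that was well above the floor of 3 counts in every library. Tnnc2 (ENSRNOG00000015155, chr3:153513271-153514652) had 875, 1740 and 1109 counts in the Sham libraries, or 12.7 to 19.8 CPM. In Sham replicate 1 this level of 13.8 CPM stood beside 0 counts of Tnni2 and 44 of Tnnt3, the other fast troponins. In the SCI libraries Tnnc2 had 21299, 287 and 4686 counts, and in the SCI + SCS libraries 444, 455 and 544. Without the muscle-bearing libraries, SCI replicate 2 (4.07 CPM) and all SCI + SCS libraries (6.23 to 8.52 CPM) lay below all Sham libraries. Tnnc1, the slow and cardiac gene (ENSRNOG00000018943, chr16:6402171-6405634), had 2125, 89 and 2000 counts in SCI replicates 1, 2 and 3, 111, 171 and 153 in the Sham libraries and 125, 112 and 97 in the SCI + SCS libraries.

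The comparison of fast with slow genes asked whether the libraries with muscle signal held both kinds of fibre gene in the same proportion. Levels of different genes were compared per length, in FPKM (counts scaled by gene length and library size), as the authors' table gives them. In SCI replicate 1 the fast gene held most of each pair, with 87.5% of the FPKM of the larger Myh2 row and Myh7, 78.5% of that of Tnnt3 and Tnnt1, 88.2% of that of Tnni2 and Tnni1 and 93.5% of that of Tnnc2 and Tnnc1. In SCI replicate 3 the same shares were 51.2%, 58.0%, 61.2% and 77.0%, lower in all 4 pairs. Summed over the members, the fast genes held 87.6% of the FPKM in SCI replicate 1 and 64.4% in SCI replicate 3. With the smaller Myh2 row added, these sums were 87.9% and 66.2%. Counts and FPKM together implied a gene length that changed little between libraries for most members, but ran from 1272 to 2319 bases for Tnnt3, so its FPKM shares also hold that change; as shares of counts, Tnnt3 held 87.5% of its pair in SCI replicate 1 and 67.2% in SCI replicate 3.

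In the libraries without muscle signal other than Sham replicate 2, the pairs did not move together. SCI replicate 2 had fast shares of 42.2%, 42.6%, 25.9% and 81.9% for the heavy chains and troponins T, I and C. Sham replicate 2 had shares of 82.9%, 75.5%, 84.8% and 93.4%, each of them less than 5 percentage points below that of SCI replicate 1, on counts of 150 to 1740 for the fast genes. Sham replicates 1 and 3 had shares of 30.2% and 39.8% for the heavy chains and of 91.9% and 91.2% for troponin C. The SCI + SCS libraries ranged from 32.8% to 41.8% for the heavy chains, from 32.6% to 53.7% for troponin T, from 12.7% to 73.5% for troponin I and from 83.2% to 89.1% for troponin C. The troponin I shares rest on 5 to 38 counts of Tnni2 in these libraries, and as shares of counts their 95% intervals were 42.2% to 70.7%, 63.4% to 88.2% and 5.85% to 35.8%. Summed fast shares outside muscle are mostly those of Tnnc2, and without the troponin C genes they fell from 85.3%, 90.4% and 83.4% to 27.7%, 79.9% and 46.3% in the Sham libraries, and from 70.4%, 67.2% and 75.7% to 50.6%, 36.9% and 38.3% in the SCI + SCS libraries.

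**Figure D2:**
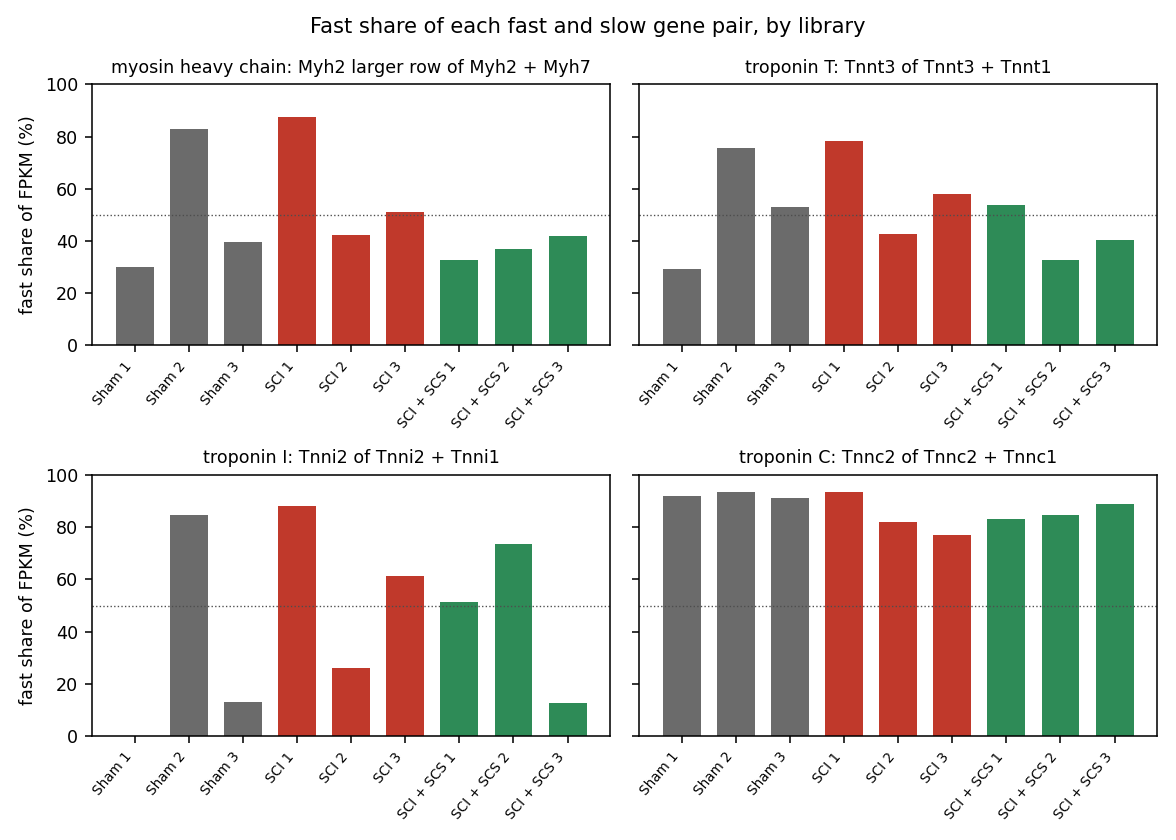
Percent of the FPKM of each fast and slow gene pair that came from the fast gene (vertical axis, 0 to 100%) in each library (horizontal axis, grey Sham, red SCI, green SCI + SCS), with a dotted line at 50%. SCI replicate 1 and Sham replicate 2 had over 75% fast in all 4 panels, SCI replicate 3 had 51.2% to 77.0%, and troponin C was over 75% fast in every library.

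Both muscle-bearing libraries were then set against each other gene by gene, which needs no gene length. The fast members were 3.47 to 7.59 times higher in SCI replicate 1 than in SCI replicate 3 (CPM ratio). The larger Myh2 row had a ratio of 7.59 (95% interval from counting 7.42 to 7.78), Tnnt3 4.24 (4.12 to 4.35), Tnnc2 3.99 (3.87 to 4.12) and Tnni2 3.47 (3.37 to 3.59). The slow members lay close to 1, with Tnnt1 at 1.24 (1.18 to 1.3), Myh7 at 1.14 (1.1 to 1.17), Tnnc1 at 0.933 (0.877 to 0.992) and Tnni1 at 0.825 (0.78 to 0.872). The fast and slow members did not overlap in this ratio, and the smaller Myh2 row, at 1.55 (1.51 to 1.6), fell between them. As a quotient of fast to slow counts, SCI replicate 1 exceeded SCI replicate 3 by 3.42 times for troponin T, 4.21 times for troponin I, 4.28 times for troponin C and 6.67 times for the heavy chains. These are 2 rats, each with 1 library, so the ratios compare libraries and not conditions.

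The partner genes of each fibre type, on lists that were likewise chosen with results of these data known, are given as a description. Of 12 fast partners, 11 stood at over 3 times the highest Sham level in both libraries. Their ratios ran from 1.44 to 13.8 with a median of 4.14. This Sham limit also required a minimum count in both libraries, which Myf5 of a later list, with 4 and 11 counts, missed. Atp2a1, the calcium pump of fast fibres, had a ratio of 5.17 (38436 against 6531 counts) and Mylpf, a fast myosin light chain that the files list as Myl11, 3.3 (23005 against 6122). Pvalb, a calcium buffer of fast fibres and of some neurons, had 5.47 but did not pass the Sham limit in both libraries. Of 12 slow partners, 7 passed that limit and had ratios of 0.408 to 1.69 with a median of 1.23, so both sets overlapped. The difference between them was not tested. The slow partners with the highest means, Atp2a2, Fhl1 and Tpm3, are used by many cell types and did not pass it. Myl2 and Mb, a slow myosin light chain and the oxygen store myoglobin, were chosen after their values were seen and had ratios of 1.23 (3643 against 2608 counts) and 1.4 (19281 against 12079).

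The lists of shared sarcomere genes, excitation-contraction coupling and energy enzymes had medians between those of the fast and slow partners, with single genes on either side. The 19 of 22 shared sarcomere genes past the Sham limit had a median ratio of 1.67, from 0.703 to 3.46, with Acta1, skeletal actin, at 2.55 and Tpm2, a tropomyosin, at 1.58. The 8 of 12 genes of excitation-contraction coupling past it had a median of 2.21, among them Ryr1, the calcium release channel, at 2.33. The 6 of 12 energy enzymes past it had a median of 3.82, with Ckm, muscle creatine kinase, at 4.85. In the list of developmental, cardiac and regenerating muscle genes, 4 passed the limit in both libraries and had ratios of 0.422 to 1.95. The list did not move one way. Of its 3 most abundant genes, Tnnt2, cardiac troponin T, had a ratio of 0.295, Chrng, the fetal receptor subunit, 0.999 and Myh6, a cardiac heavy chain, 1.08. The genes that follow were chosen after their values were seen. Musk, a kinase of the neuromuscular junction, had 2.28, Myf6, a factor of mature fibres, 1.95 and Myh8, the perinatal heavy chain, 1.53. Tnni3 (1.37), Chrne (1.27) and Myod1 (1.15) were above 1 as well. Higher in SCI replicate 3 were Chrna1 (0.622) and Chrnd (0.433), and also Myh3, Actc1 and Myog, whose counts are given below. The interval of Myf5, at 0.319 (0.0741 to 1.08), included 1. In SCI replicates 1 and 3, Pax7 had 4 and 0 counts and Mymk 0 and 14. Myh3, the embryonic heavy chain, had 37 counts in SCI replicate 1 and 653 in SCI replicate 3, against 0 to 32 in the other libraries. Actc1, cardiac actin that young fibres also use, had 42 and 331, and Myog, a factor of differentiating muscle, 49 and 102.

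**Figure D3:**
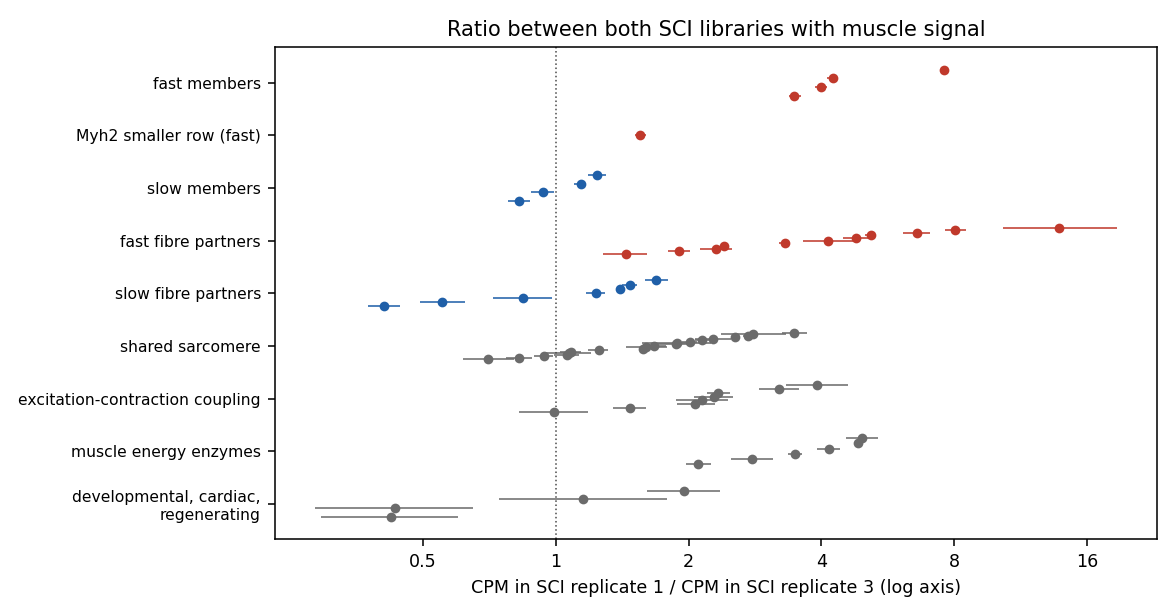
Ratio of CPM in SCI replicate 1 to CPM in SCI replicate 3 (horizontal log axis) for the members, the smaller Myh2 row and each list of muscle genes other than smooth muscle (vertical axis). Each of these genes that stood at over 3 times the highest Sham level, and passed a minimum count, in both libraries has 1 point. The other lists are not drawn. Bars give the 95% interval from counting. Fast members lay at 3.47 to 7.59 and slow members at 0.825 to 1.24, and the fast partners ran from 1.44 to 13.8 and the slow partners from 0.408 to 1.69.

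Other lists were also unequal between these libraries. Spinal cord genes took 3.33% of the counts in SCI replicate 1 and 2.08% in SCI replicate 3, and all 13 were higher in the first, by 1.27 to 5.49 times. Schwann cell and nerve root genes took 0.608% and 0.851%, and all 7 were lower in it. Their part in the fast and slow values was not tested.

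The genes whose levels followed the members most closely were other muscle genes. Over the 9 libraries, the log2 CPM of Myl11 had a Pearson correlation of 0.9946 with the mean of the fast members, followed by Actn3 (0.9931), Pgam2 (0.993), Mylk2 (0.9924) and Myoz1 (0.9917), a fast actinin, a muscle glycolytic enzyme, a kinase of the fast light chain and a fast Z-disc protein. For the mean of the slow members these genes were Lmod2 (0.9974), Klhl41 (0.9958), Trim72 (0.9954), Myot (0.9925) and Myl3 (0.9917), of which Myl3 is the slow light chain. These are descriptions without a test, and the same pair of SCI libraries carries both sets.

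As groups, the SCI libraries were 2.87 to 7.41 higher than the Sham libraries in log2FC for all 8 members (edgeR), from Tnnc2 at the low end to Tnni2 at the high end. In that comparison 6 of the 8 met |log2FC|>1 with an adjusted p under 0.05, all but the larger Myh2 row and Tnnc2, where 26.9% of all 17822 genes tested did so in either direction; the choice of members used this contrast, so nothing is read from the count. With SCI replicates 1 and 3 both left out, an alternative added after the values were seen, edgeR called 0 of the 8, with 2 at an unadjusted p under 0.05 and 2 called by DESeq2. In that fit SCI replicate 2 stands alone and was assumed to vary like the Sham libraries. The log2FC of SCI replicate 2 against the Sham libraries was then -2.04 for the larger Myh2 row, -0.56 for Myh7, -1.23 for Tnni2, -0.53 for Tnnc1 and -1.93 for Tnnc2, and it was 1.86 for Tnnt1, 0.43 for Tnnt3 and 1.12 for Tnni1. The groups did not overlap for Tnnt1 and Tnni1, which were higher in all 3 SCI libraries, as were 32.6% of all genes tested. Of the muscle lists, edgeR called higher 8 of 11 fast partners tested, 7 of 11 slow partners, 16 of 22 shared sarcomere genes, 7 of 10 genes of excitation-contraction coupling, 4 of 11 energy enzymes and 2 of 10 developmental, cardiac and regenerating muscle genes, and none of these lower. With both libraries left out, edgeR called 0 of 75 tested genes of these lists higher and 2 lower, Pvalb (log2FC -2.09) and Ckmt2, which had 0 counts in SCI replicate 2, with 22 at an unadjusted p under 0.05 and 12 called by DESeq2. These counts are descriptions like those of the members. The smaller Myh2 row, which the rule does not take, had a log2FC of 7.90, and of 0.86 with both libraries left out.

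Against the SCI group, the SCI + SCS libraries were lower for all 8 members, with log2FC from -8.24 (Tnni2) to -3.55 (Tnnc1). The groups did not overlap for Tnnt1, Tnnt3 and Tnni1, which were lower in all 3 SCI + SCS libraries, as were 13.9% of all genes tested. None of the 8 met the criteria in edgeR, with 8 at an unadjusted p under 0.05 and 0.00566% of 17663 genes called in all. DESeq2 called all 8, with a background of 4.48%, and edgeR called all 8 when SCI replicate 2 was left out. With SCI replicates 1 and 3 both left out, 5 members were higher in the SCI + SCS libraries than in SCI replicate 2, by log2FC of 0.31 (the larger Myh2 row) to 0.79 (Tnnc2). Tnnt1 (-0.67), Tnnt3 (-0.61) and Tnni1 (-1.02) were lower, and 0 of the 8 were called by edgeR or DESeq2, with 1 of the 8 at an unadjusted p under 0.05. For these 5 members the direction thus depended on SCI replicates 1 and 3.

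The comparison of SCI + SCS with Sham uses none of the SCI libraries, and for it a test was made. Of the 8 members, 1 rose and 1 fell, where 6.28% of 17640 genes rose, 5.44% fell and 11.7% were called in either direction. Tnnt1, slow troponin T, was 2.38 ± 0.556 CPM in the SCI + SCS group and 1.03 ± 0.163 CPM in the Sham group (SD, n = 3 each). Its log2FC was 1.21 (SE 0.26, edgeR adjusted p = 0.0176), and all 3 SCI + SCS libraries were above all 3 Sham libraries. Tnnc2, fast troponin C, was 7.07 ± 1.26 CPM in the SCI + SCS group and 15.4 ± 3.82 CPM in the Sham group. It had a log2FC of -1.12 (SE 0.22, edgeR adjusted p = 0.0133), with all 3 SCI + SCS libraries below all 3 Sham libraries. Among all genes tested, the groups did not overlap for 27.2%, higher, and 26.0%, lower.

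Neither call held under every setting. Both were lost with Sham replicate 2 left out (log2FC 1.09 and adjusted p = 0.0651 for Tnnt1, log2FC -0.90 for Tnnc2), with SCI + SCS replicate 1 left out (edgeR adjusted p = 0.0561 and 0.0575) and with SCI + SCS replicate 2 left out (0.0581 and 0.0532). A replicate block in the edgeR fit gave an adjusted p of 0.0837 for Tnnt1 and 0.0663 for Tnnc2, and all 9 libraries in one edgeR fit gave 0.248 and 0.418. On the log2(FPKM + 1) scale the fold limit was missed, at 0.70 and -0.99 (limma adjusted p = 0.0118 and 0.0147), while DESeq2 called both.

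**Figure D4:**
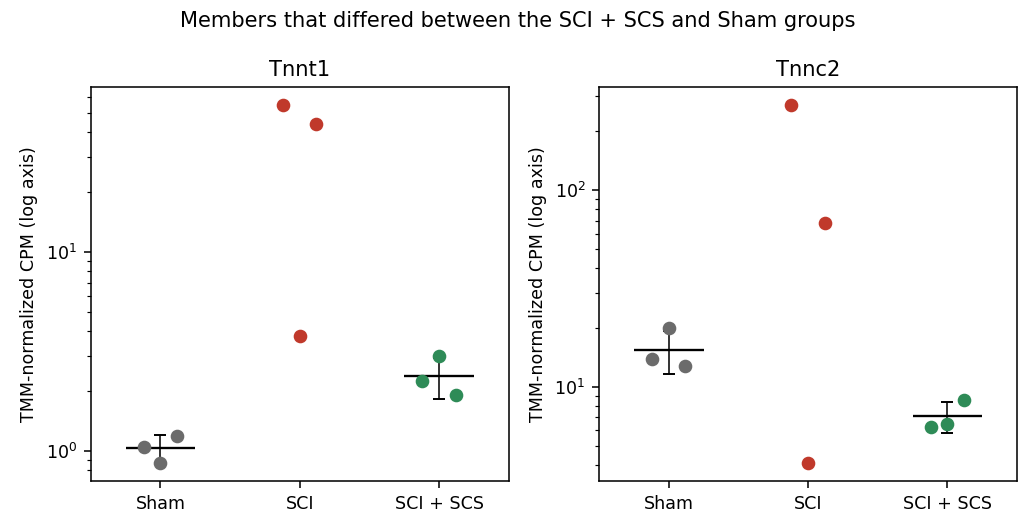
TMM-normalized CPM (vertical log axis) of Tnnt1 and Tnnc2 in the 3 libraries of each group (horizontal axis), with a line at the mean and a bar for the SD in the Sham and SCI + SCS groups. For Tnnt1 the SCI + SCS libraries (1.91 to 2.99 CPM) lay above the Sham libraries (0.863 to 1.19 CPM), for Tnnc2 they lay below (6.23 to 8.52 against 12.7 to 19.8 CPM), and for both SCI replicates 1 and 3 lay far above the rest.

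The other 6 members did not pass the test between SCI + SCS and Sham. Their log2FC were 0.07 for Myh7 (SE 0.18), 0.11 for Tnni1 (SE 0.50), -0.16 for Tnnc1 (SE 0.19), -0.17 for Tnnt3 (SE 0.62), -0.79 for Tnni2 (SE 1.51) and -1.71 for the larger Myh2 row (SE 0.92, edgeR adjusted p = 0.188). The fast members had the wider errors, and the 3 with negative values changed sign when Sham replicate 2 was left out, to 0.63 for Tnnt3, 3.14 for Tnni2 and 0.19 for the larger Myh2 row. In that library Atp2a1 (737 counts, against 67 and 37 in the other Sham libraries) and Ckm (577 against 35 and 10) were high as well.

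Several marker lists differed between these groups beside the members. Spinal cord genes took 5.4% to 7.97% of the counts in the Sham libraries and 3.47% to 4.25% in the SCI + SCS libraries. Of these 13 genes, 4 were called lower, among them the neuronal genes Snap25, Slc17a6 and Slc6a5. The neuronal genes Rbfox3 (log2FC -0.71), Gad1 (-0.81) and Chat (-1.44) were not called. Only 1 was called higher, Gfap, the astrocyte filament gene, at a log2FC of 1.21. The astrocyte genes Aqp4 (0.06) and Slc1a2 (-0.93) did not rise with it. Smooth muscle genes took 0.0215% to 0.0349% and 0.0406% to 0.0496%, with 2 of 10 higher, the smooth muscle calponin gene Cnn1 (log2FC 1.70) and the desmin gene Des (1.17). Adipocyte genes took 0.0047% to 0.0071% and 0.00773% to 0.0117%, with 2 of 6 tested higher, Cfd and Fabp4. The list did not move as one. Plin1 (log2FC 0.02), Lipe (-0.20), Pparg (0.83) and Cidea (1.39) were not called. Adipoq had 7, 0 and 3 counts in the Sham libraries and 0 in each SCI + SCS library, and Lep was at 0 counts in all 9 libraries. Schwann cell and nerve root genes took 0.33% to 0.53% and 0.517% to 1.14%, with 0 of 7 called by edgeR, 4 at an unadjusted p under 0.05 and 2 called by DESeq2. Tendon genes took 0.00349% to 0.0173% and 0.0155% to 0.0212%, with 1 of 6 lower, and bone and cartilage genes 0.00339% to 0.0039% and 0.00297% to 0.00438%, with 1 of 10 higher and 2 lower. The part of these lists in the values of Tnnt1 and Tnnc2 was not tested.

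Of 68 tested genes of the 6 muscle lists, 8 were called between SCI + SCS and Sham, or 11.8%, which is close to the 11.7% of all genes. Of the fast partners, 0 of 10 tested were called by edgeR (median log2FC -0.66), 2 had an unadjusted p under 0.05 and 1 was called by DESeq2, with Pvalb at -0.92, Mylpf at -0.61 and Atp2a1 at -2.46 (SE 1.06). Of the slow partners, 2 of 10 rose and 0 fell (median 0.11), and these were Myl2, the slow myosin light chain (log2FC 4.98, SE 1.02), and Csrp3, a Z-disc stress sensor (2.71, SE 0.82). Myl2 had 65, 58 and 22 counts in the SCI + SCS libraries, 68 in SCI replicate 2 and 0, 5 and 0 in the Sham libraries, so that injured cords without muscle signal also held it; its fold change rests on these few Sham counts. Csrp3 had 22, 28 and 17 counts in the SCI + SCS libraries, 35 in SCI replicate 2 and 0, 3 and 9 in the Sham libraries. The more abundant slow partners Atp2a2, Fhl1 and Tpm3 had log2FC of -0.72, 0.40 and -0.34.

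Among 19 shared sarcomere genes tested, Trim63, a ubiquitin ligase of muscle wasting, rose (log2FC 1.56) and Acta1 fell (-1.74), with a list median of -0.02. Of 9 genes of excitation-contraction coupling, Trdn rose (1.63) and Jph1 fell (-1.62), with a median of 0.13, and Ryr1 was at -0.37, Jph2 at 0.59 and Srl at 0.79. Of 11 energy enzymes, Ckmt2, mitochondrial creatine kinase, fell (-1.93), and the median was 0.05. Of 9 developmental, cardiac and regenerating muscle genes tested, Tnni3, cardiac troponin I, rose (1.18), and Tnnt2, cardiac troponin T, was at 1.26 (SE 0.97), with a median of -0.21. The median over all genes tested was 0.01. Genes named here outside the 3 most abundant of each list were chosen after their values were seen.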

How the data were processed

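Total RNA from the T9-T11 spinal cord of 9 rats (Sham, SCI and SCI + SCS, n = 3 each) was enriched for mRNA with oligo(dT) beads. The submitters' processing notes name fastp 0.23.2, HISAT2 2.2.1 and the build mRatBN7.2. The counting program and its use of strand are not given in the sources used here. The authors deposited raw counts per gene, and FPKM values, scaled by them for the length of each gene and the size of each library. Groups and replicate numbers came from the labels, which name a single batch and 1 rat per library.

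For each member the row with its symbol and the highest total count was used. The members and gene lists were chosen with earlier results of these data known, and the lists follow those of an earlier analysis in part. Of 144 list entries, 140 were matched by symbol and 3 through RefSeq's gene number (Mylpf, Myl1 and Atp2a1), and 1 had no row. The test between groups was edgeR's quasi-likelihood test (version 4.0.16, in R 4.3.3, with TMM and its default filter) over the 6 libraries concerned, with Benjamini-Hochberg adjustment over all genes tested. A gene was called at |log2FC|>1 and an adjusted p under 0.05, and the SE is the log2FC divided by the square root of F. DESeq2, which the study used with these thresholds, was an alternative (version 1.42.0), as was limma 3.58.1 on log2(FPKM + 1) or log2(FPKM + 0.1), with a mean FPKM of at least 0.1. On that scale the change of low genes is understated. The other alternatives were no filter on low counts, DESeq2's size factors, muscle genes left out of TMM, all 9 libraries in one fit, a replicate block, rows of one identifier summed and each library left out in turn. Others were added after the values were seen. Replicates differed by far more than sampling noise, so none was counted as a duplicate. Each p-value of the main test measures the spread between the 6 rats of the groups compared. An exact permutation test of 3 against 3 cannot go below 0.1. Intervals and the limit of 3 counts cover counting error only.

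The genes named are the members, the 3 genes of each list with the highest mean CPM, and for fast and for slow members the 5 genes with the highest correlation of log2(CPM + 0.5); others are marked. A gene of the spinal cord list is not reported here.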

Additional observations from a re-analysis of the deposited data

How the results depend on the processing

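For SCI against Sham, 4800 genes and 6 members were called. The number of members was 3 with limma on log2(FPKM + 1) or log2(FPKM + 0.1), 2 with the replicate block and 2 to 8 with 1 library left out, being 2 without any 1 Sham library or SCI replicate 1, 3 without SCI replicate 3 and 8 without SCI replicate 2. The number of genes was 2649 with limma on log2(FPKM + 1), and 777 genes and 0 members with SCI replicates 1 and 3 both left out, which turned the log2FC of the larger Myh2 row (-2.04), Myh7 (-0.56), Tnni2 (-1.23), Tnnc1 (-0.53) and Tnnc2 (-1.93). For SCI + SCS against SCI, edgeR called 1 gene and 0 members, and DESeq2 called 777 genes and 8 members. Unadjusted p-values called 988 genes and 8 members, limma 20 genes on log2(FPKM + 1) and 19 on log2(FPKM + 0.1), and the replicate block and the summing of rows of one identifier 0 genes. Leaving out 1 library gave 0 to 123 genes (77 without SCI replicate 2, 123 without SCI + SCS replicate 1) and 0 to 8 members, with all 8 called without SCI replicate 2. With SCI replicates 1 and 3 both left out, 3 genes were called and the log2FC turned for the larger Myh2 row (0.31), Myh7 (0.62), Tnni2 (0.42), Tnnc1 (0.35) and Tnnc2 (0.79). For SCI + SCS against Sham, 2068 genes and 2 members were called; all 9 libraries in one fit called 0 members, the replicate block 715 genes and 0 members, and limma on log2(FPKM + 1) 921 genes and 0 members. Leaving out 1 library gave 950 to 2891 genes and 0 to 2 members. The log2FC turned with the block for Tnnt3 (0.09), Tnni2 (0.55) and the smaller Myh2 row (0.20), and with limma for Tnnt3 (0.23 and 0.51 with pseudocounts of 1 and 0.1) and Tnni2 (0.13 with 0.1). With 1 library left out it ran from -2.20 to 0.19 for the larger and from -0.47 to 0.90 for the smaller Myh2 row, from -0.04 to 0.14 for Myh7, from -0.16 to 0.45 for Tnni1, from -1.36 to 3.14 for Tnni2 and from -0.60 to 0.63 for Tnnt3. The fast share by summed counts in place of FPKM was 73.6% and 72.6% in Sham replicates 1 and 3 and 58.9%, 58.8% and 64.6% in the SCI + SCS group. Without the troponin C genes it was 27.7%, 79.9% and 46.3% in the Sham group, 41.2% in SCI replicate 2 and 50.6%, 36.9% and 38.3% in the SCI + SCS group. With the members added, the muscle share was 0.0178% in Sham replicate 2 and 0.0136%, 0.0136% and 0.0127% in the SCI + SCS group. The cause of these changes was not tested, apart from the fewer libraries of those fits. Same-numbered libraries are different rats. The correlations of their deviations from the group means were 0.24, -0.06 and 0.20 between the Sham and SCI groups. They were -0.17, 0 and -0.20 between SCI and SCI + SCS and -0.33, 0.02 and -0.31 between Sham and SCI + SCS. Differently numbered libraries were not correlated, so whether the numbers share more than a label was not tested. Depth limits the troponin I values, which rest on 0 to 40 counts outside SCI replicates 1 and 3 but for Tnni2 in Sham replicate 2.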

Other observations

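Regulators of muscle fate and subunits of the muscle acetylcholine receptor were read in the same libraries, as values with no test, and were chosen after their values were seen. Myf6, a factor of mature fibres, had 359 counts in SCI replicate 1, 162 in SCI replicate 3 and 0 in the other 7 libraries. Myod1 had 51 and 39 counts there, against 0 to 8 elsewhere, and Myf5 had 4 and 11, against 0 in the other 7 libraries. Of the receptor subunits, Chrnd had 37 and 75 counts, against 0 to 11 elsewhere, and Chrna1 had 56 and 79, against 12 to 42. Chrnd and Chrna1, like Myog, had more counts in SCI replicate 3 than in SCI replicate 1. The adult subunit gene Chrne had fewer (119 against 172, with 279 in Sham replicate 2), as had the receptor-clustering kinase Musk (42 against 109), Myf6 and Myod1. Chrng, the fetal gamma subunit, did not follow muscle, with 2562 to 4391 counts in every library. Myh13, the fast heavy chain of eye muscles, had 785 counts in SCI replicate 1 and 50 in SCI replicate 3, against 0 to 18 elsewhere.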
